A study of Bassia scoparia with 27 samples.

Results

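Kochia (Bassia scoparia) genes whose coding sequence is short and uninterrupted were followed through the response to fluroxypyr, a herbicide that mimics the plant hormone auxin. A transcript was a member if its gene model had exactly 1 coding (CDS) line of 240 to 600 nt and its value was at least 10 in at least 2 of the 27 libraries. Of 56962 mRNAs in the gene models of genome assembly version 2, 7926 had such a structure, 4606 of these were among the 45517 transcripts of the value table and 1734 reached the minimum. After 7 named in the paper were dropped, 1727 members of 1726 loci remained. The choice used structure and the value minimum, and not the response. The files do not pair the transcript IDs with gene names, so no function is given for any ID.

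In plants, a gene without introns needs no splicing before its transcript leaves the nucleus. In Arabidopsis, the SAUR genes, which are induced early by auxin and act in cell expansion, are short, mostly without introns and often lie in tandem clusters. Many histone genes and some genes of the AP2/ERF transcription factors, which act in stress and ethylene responses, also lack introns there. Which members belong to such families cannot be read from the files.

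The libraries were made from young leaf and meristem tissue of 3 lines, each sampled untreated (UNT), then 3 and 10 hours after fluroxypyr was applied (HAT). Flur-R is a fluroxypyr-resistant line raised from survivors of a field population, 9425 is an inbred line that is resistant to dicamba through a mutation of IAA16 and susceptible to fluroxypyr, and J01-S is a susceptible field population. For the untreated samples, tissue was taken from these plants a day before treatment, after a water spray, so that treatment, time of day and time since the first sampling cannot be told apart. Not all Flur-R and J01-S plants grown were still vegetative, and neither the flowering ones nor the RNA extraction batches are identified among the libraries. Tissue markers could not be checked, because the gene models carry no names.

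Whether the 10 HAT libraries matched their labelled line was examined on 660 transcripts whose untreated and 3 HAT values set 9425 and J01-S apart. The library labelled J01-S 10 HAT replicate 3 was on the 9425 side at 98.3% of them and the library labelled 9425 10 HAT replicate 3 at 37.7%. The other 9425 libraries had 98.0 to 99.7%, and J01-S replicates 2 and 4 had 25.5% and 0.758%. J01-S replicate 2 thus lay between the 2 lines, and the reason was not tested. It was kept, so the J01-S results at 10 HAT rest in part on a library whose line is uncertain. The 2 libraries with replicate number 3 were left out of the tests, which leaves 25 libraries, with 3, 3 and 4 of Flur-R at UNT, 3 HAT and 10 HAT, 3, 3 and 3 of 9425 and 2, 2 and 2 of J01-S. Values are the authors' normalized counts, rounded to whole numbers, and the library totals ran between 50.9 and 76.9 M. The groups were tested with limma, with 1 added to each value before taking log2, over the 28945 transcripts with at least 10 in at least 2 of the 25 libraries. Calls needed a log2 fold change beyond 0.5 in either direction and an adjusted p below 0.05 by the Benjamini-Hochberg method. Of the 1727 members, 1698 were tested and 29 missed the minimum in the 25 libraries. Among those tested, 119 reached 10 in treated libraries only and 27 in untreated libraries only, so that some members passed the filter through the groups in which they were high.

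The members were typically less abundant than other transcripts, and less so beside those of the same coding length. Of the gene models with this structure, 21.9% reached the minimum, against 57.0% of models with 2 or more CDS lines, 43.0% of those that also had a CDS of 240 to 600 nt, and 48.9% of single-CDS models over 600 nt. The tested members had a median untreated value of 39.3 (quartiles 8.63 and 281), against 302 for transcripts with 2 or more CDS lines and 77.1 for those of them with a CDS of 240 to 600 nt. Per kb of CDS the medians were 107, 328 and 194. The median CDS of the members was 372 nt, and all their CDS lengths were multiples of 3. For 1545 members the CDS was as long as the whole mRNA model, and 176 had an annotated UTR. Library-to-library spread was also wider. The median SD within groups was 0.88 on the log2 scale for members and 0.52 for transcripts with 2 or more CDS lines. Among transcripts of similar mean level (log2 of 7 to 9), it was 0.55 over 250 members and 0.44 over 4481 transcripts. In bulk tissue, fewer cells of a type and less RNA per cell cannot be told apart.

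A few members held a large share of the members' summed value in untreated libraries, and a smaller one after treatment. The members made up from 2.19 to 3.9% of a library's total. The 10 members with the highest untreated mean, chosen after their values were seen, held 51.6 to 55.2% of that sum in untreated Flur-R libraries, 32.7 to 36.7% at 3 HAT and 23.2 to 25% at 10 HAT. In 9425 they held 43.3 to 57.7% untreated, 34.8 to 39.9% at 3 HAT and 24.8 to 28.9% at 10 HAT, and in J01-S 48.2 and 49.6%, 32.4 and 33.4%, and 26 and 27.7%. The groups of a line did not overlap in any of the 3 lines. Since these 10 were picked for high untreated values, part of the decline is set by the choice, and it is given as a description.

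**Figure D1:**
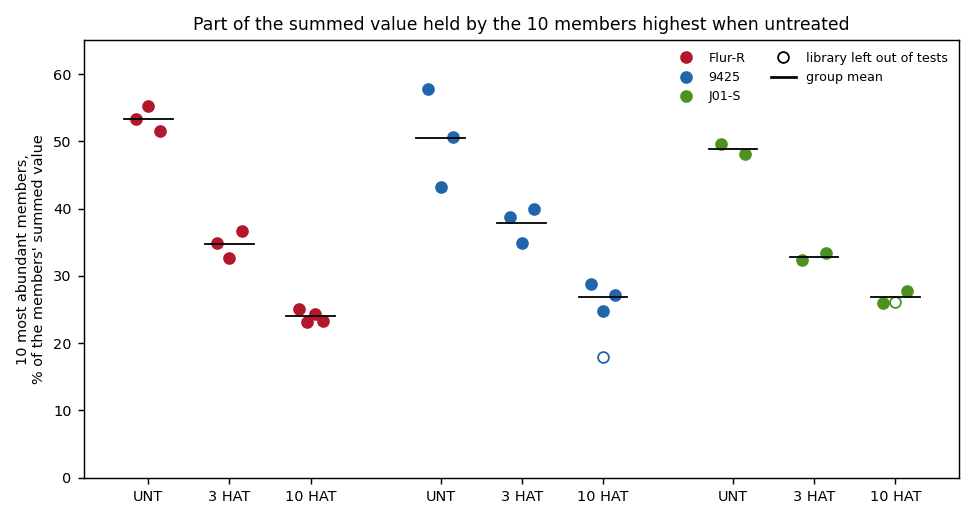
The y axis gives the share of the members' summed value, in percent, that the 10 members with the highest untreated mean held in each library, by line and time (points, libraries; bars, group means; open points, the 2 libraries left out). Among the 25 libraries used, the share is highest in untreated libraries (43.3 to 57.7%) and lowest at 10 HAT (23.2 to 28.9%) in each line, and the open points stand at 17.9% (labelled 9425) and 26.1% (labelled J01-S).

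The most abundant member was Bs.00g309130.m01 (chromosome 9, 13805063 to 13805636, minus strand, CDS 471 nt). It had 51154, 50860, 52900 and 67731 at 10 HAT in Flur-R, against 224641, 232501 and 222431 untreated. In 9425 it had 70345, 65485 and 82542 at 10 HAT, against 314002, 105269 and 201155 untreated, and in J01-S 60499 and 81784, against 275895 and 236549. Every 10 HAT library was below every untreated library of its line. The log2 fold change was -2.04 ± 0.27 (SE), -1.38 ± 0.29 and -1.86 ± 0.36 for Flur-R, 9425 and J01-S (adjusted p = 2.5e-05, 0.00197 and 0.00166). Bs.00g044760.m01 (chromosome 8, 81234056 to 81234400, minus strand, CDS 345 nt), the highest of the 10 per kb of CDS, fell likewise, with log2 fold changes of -1.55 ± 0.22, -1.18 ± 0.23 and -1.94 ± 0.29 in the same order of lines. Of the 10, the number that fell at 10 HAT was 8 for Flur-R, 7 for 9425 and 6 for J01-S, and at 3 HAT it was 4, 0 and 1. None rose in any of these 6 comparisons. At 10 HAT 11.1, 11.0 and 7.77% of all transcripts tested fell in the 3 lines, and 27.1, 26.1 and 21.3% of transcripts with 2 or more CDS lines and an untreated value above 2047, and since the 10 were picked for high untreated values their counts are a description.

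At 3 HAT, more members rose than fell in each line. In Flur-R 73 rose (4.30% of members; 5.16% of all transcripts tested rose) and 59 fell (3.47%, against 4.46% of all). In 9425 84 rose (4.95%, against 4.27% of all) and 22 fell (1.30%, against 3.80% of all). In J01-S 84 rose (4.95%, against 4.73% of all) and 27 fell (1.59%, against 3.82% of all). Of the called members, 79.2% were higher in 9425 and 75.7% in J01-S, against 52.9% and 55.3% of all called transcripts. In Flur-R the shares were 55.3 and 53.6%. Called transcripts with 2 or more CDS lines and a CDS of 240 to 600 nt also leaned to rises. Of these, 71.4% were higher in 9425, 69.4% in J01-S and 58.9% in Flur-R. Since each plant was sampled repeatedly, the plant can enter the fit, and with the plant as a block 144 rose and 141 fell in Flur-R. The counts were then 162 and 56 in 9425 and 187 and 83 in J01-S. No share of all transcripts tested stands beside the counts with the block, so they are not read as particular to the members.

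In all 3 lines together, 33 members rose at 3 HAT (1.94%, against 2.16% of all transcripts tested) and 11 fell (0.648%, against 1.79%). No member was called higher in 1 line and lower in another at 3 HAT or at 10 HAT. With the plant as a block, 71 rose and 18 fell in all 3 lines. The counts rest on few libraries. The order of rises and falls turned round in Flur-R without 3 HAT replicate 4, where 54 rose and 83 fell. In Flur-R 44 rose without untreated replicate 3, and 28 to 38 fell when 3 HAT replicate 2 or 3 or untreated replicate 2 or 3 was left out. In 9425 25 rose without 3 HAT replicate 3, 44 and 51 without untreated replicates 2 and 3, and 8 to 10 fell without 3 HAT replicate 3 or 4 or untreated replicate 1. In J01-S 23 rose without 3 HAT replicate 1 and 24 without untreated replicate 4, and 11 to 15 fell with any 1 of its 4 libraries left out. The 33 became 19 without 9425 3 HAT replicate 3, 14 without J01-S 3 HAT replicate 1 and 12 without J01-S untreated replicate 4. The 11 became 3 to 7 without any 1 of 9425 3 HAT replicates 3 and 4, 9425 untreated replicate 1 or the 4 J01-S libraries.

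At 10 HAT, more members fell than rose in each line. In Flur-R 109 rose (6.42%, against 8.27% of all transcripts tested) and 154 fell (9.07%, against 11.1%). In 9425 124 rose (7.30%, against 9.84%) and 136 fell (8.01%, against 11.0%). In J01-S 70 rose (4.12%, against 5.67%) and 96 fell (5.65%, against 7.77%). In all 3 lines 36 rose (2.12%, against 3.20%) and 60 fell (3.53%, against 5.51%). With the plant as a block, 167 rose and 219 fell in Flur-R, while in 9425 more rose (216) than fell (177). In J01-S 97 rose and 95 fell with the block, which there rests on plant 4, the only plant with libraries at both times. More also rose than fell in 9425 with the plant as a random effect (214 and 207), with only the groups compared in the fit (107 and 85) and without untreated replicate 1 (119 and 98). The direction depended on the scale too. The totals of the 10 HAT libraries used were the lowest of each line, and with every library scaled to the same total the median log2 fold change of all transcripts was 0.45 (Flur-R), 0.28 (9425) and 0.40 (J01-S), against 0.03, 0.03 and 0.05 as deposited. On that scale 239 members rose (14.1%, against 22.7% of all transcripts tested) and 110 fell (6.48%, against 6.71%) in Flur-R. For 9425 the counts were 187 (11.0%, against 16.2%) and 106 (6.24%, against 7.41%), and for J01-S 136 (8.01%, against 13.6%) and 67 (3.95%, against 4.69%). At 3 HAT in Flur-R 92 rose (5.42%, against 7.05%) and 43 fell (2.53%, against 3.09%). Without Flur-R untreated replicate 3, 70 members rose in Flur-R, and without 9425 10 HAT replicate 4, 88 fell in 9425. In J01-S 40, 45 and 41 rose without 10 HAT replicate 2, 10 HAT replicate 4 and untreated replicate 1, and 61 and 43 fell without the first and the last of these. The 36 became 23, 18 and 15 without J01-S 10 HAT replicate 2, 10 HAT replicate 4 and untreated replicate 4, and the 60 became 35 without J01-S untreated replicate 1. With the 2 libraries that were left out, 148 rose and 159 fell in 9425 and 92 and 124 in J01-S. Apart from those with equal totals, the counts under other settings have no share of all transcripts tested beside them. The turn in 9425 is therefore not read as particular to the members.

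Since the shares called vary with the level, the members were also set beside other transcripts of similar untreated level. The shares of those transcripts were weighted over bins of 1 log2 unit to the members' levels. Differences between the members and those transcripts were not tested. Beside transcripts of 2 or more CDS lines and any length, the members' share that rose at 3 HAT was 4.95% against 3.25% in 9425, 4.95% against 3.94% in J01-S and 4.30% against 4.18% in Flur-R. The share that fell at 3 HAT was lower than in these transcripts in 9425 (1.30% against 2.11%) and J01-S (1.59% against 2.21%) and higher in Flur-R (3.47% against 2.48%). At 10 HAT the members rose less often, at 6.42% against 7.08% in Flur-R, 7.30% against 7.95% in 9425 and 4.12% against 5.04% in J01-S. They fell more often, at 9.07% against 6.77%, 8.01% against 6.62% and 5.65% against 4.37%. This last order turned round when the bins were made from the value per kb of CDS, where the members' share that fell at 10 HAT minus that of the other transcripts was -0.92, -1.65 and -1.20 percentage points, and likewise in Flur-R at 3 HAT for both directions (-0.31 for rises and -0.34 for falls).

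Beside transcripts of 2 or more CDS lines that had a CDS of the same length range, the members were called more often in each of the 12 combinations of line, time and direction at like untreated level. At 3 HAT 4.30, 4.95 and 4.95% of members rose in Flur-R, 9425 and J01-S, against 2.87, 2.74 and 3.16% of those transcripts, and 3.47, 1.30 and 1.59% fell, against 1.86, 1.05 and 1.30%. At 10 HAT 6.42, 7.30 and 4.12% rose, against 5.67, 7.06 and 3.59%, and 9.07, 8.01 and 5.65% fell, against 6.62, 5.61 and 4.83%. This order did not hold at each level. Above an untreated value of 2047, members fell less often at 10 HAT, at 29.1, 23.5 and 18.5% against 33.0, 28.3 and 27.3%. At values of 511 to 2047 they fell more often, at 20.8, 18.8 and 15.1% against 14.4, 12.5 and 11.5%. There they rose less often, at 7.81, 11.6 and 4.65% against 10.8, 12.9 and 5.42%. Single-CDS transcripts over 600 nt rose more often than members at 3 HAT in Flur-R (4.30% of members against 6.47%) and J01-S (4.95% against 6.71%) at like level, and less often in 9425 (4.95% of members against 4.44%). Falls at 10 HAT were about as frequent in both classes at like level. In Flur-R, 9425 and J01-S 9.07, 8.01 and 5.65% of members fell, against 8.60, 8.28 and 5.54% of single-CDS transcripts over 600 nt.

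**Figure D2:**
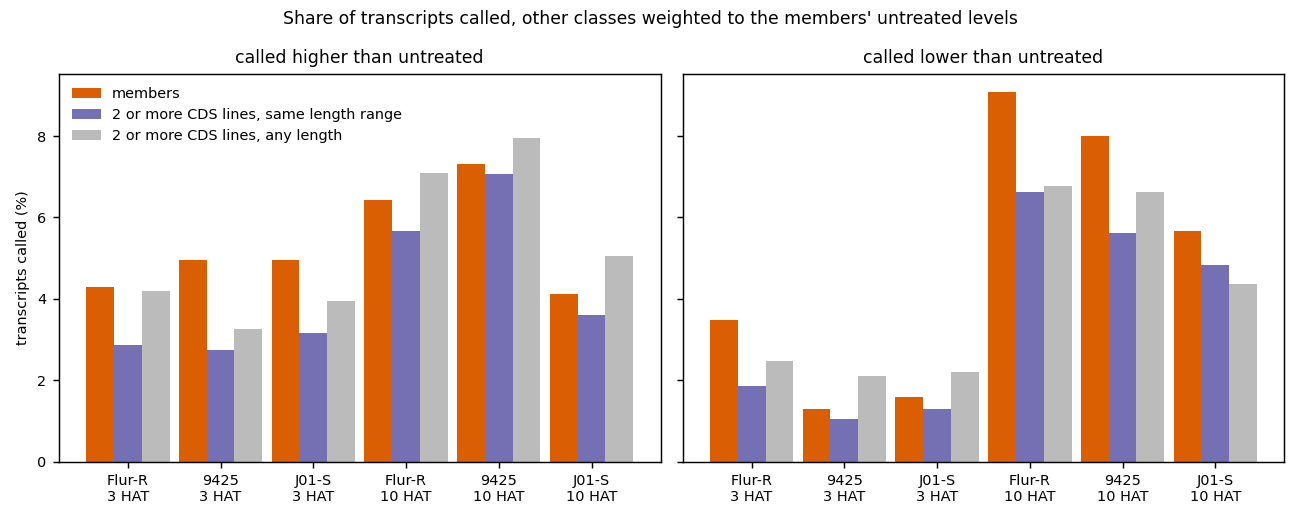
Bars give the percent of members called higher (left) or lower (right) than untreated in each line and time, beside transcripts with 2 or more CDS lines of the same CDS length range and of any length, both weighted to the members' untreated levels. Members stand above the same-length transcripts in each pair, and above those of any length for falls at 10 HAT (9.07% against 6.77% in Flur-R) and for rises at 3 HAT in 9425 (4.95% against 3.25%).

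The rises at 3 HAT were most frequent among members of intermediate level. Of members with an untreated value between 127 and 511, 8.40% rose in 9425 (20 of 238) and 8.40% in J01-S (22 of 262), against 4.01 and 4.44% of transcripts with 2 or more CDS lines in that range. In Flur-R 5.93% of such members rose (14 of 236), against 4.88%. Single-CDS transcripts over 600 nt in that range rose at 8.18% in 9425, 8.72% in J01-S and 7.44% in Flur-R, so these shares are not particular to short members. Falls were more frequent at higher levels. At 10 HAT in Flur-R 29.1% of members above 2047 fell (34 of 117), against 27.1% of transcripts with 2 or more CDS lines, while the order was the other way in 9425 (23.5% of members against 26.1%) and J01-S (18.5% against 21.3%). At values of 511 to 2047 members fell more often in each line, at 20.8% against 14.1%, 18.8% against 14.2% and 15.1% against 10.7%. Single-CDS transcripts over 600 nt in that range fell still more often, at 21.1, 19.3 and 16.4% in Flur-R, 9425 and J01-S. By length, over 6 bands from 240 to 600 nt, 1.78 to 9.04% of a band's members rose at 10 HAT in Flur-R, 4.89 to 9.60% in 9425 and 2.22 to 7.34% in J01-S, with the lowest share at lengths over 420 and up to 480 nt and the highest over 540 nt in each line. In these bands 6.45 to 12.4%, 6.45 to 9.60% and 4.24 to 8.89% fell at 10 HAT, where 8.27, 9.84 and 5.67% of all transcripts tested rose and 11.1, 11.0 and 7.77% fell. At 3 HAT too the longest band had the highest share of rises (6.21, 6.78 and 6.78%). The median untreated value was 30.8 in the shortest and 55.5 in the longest band.

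At 3 HAT, 27 members rose and 9 fell in all 3 lines without overlap of the treated with the untreated libraries in any line and with a group mean of 50 or more on the higher side (1.59 and 0.530% of members, against 1.99 and 1.73% of all transcripts tested). Ranked by the smallest of the 3 changes, the leading 2 in each direction are described. With only the groups compared in the fit, 34 of 58 calls of named members were lost. For calls against untreated tissue, these losses are counted at the end and not listed for each member. Bs.00g117690.m01 (chromosome 4, 99025831 to 99026088, plus strand, CDS 258 nt) had 722, 434 and 718 at 3 HAT in Flur-R, against 31, 15 and 59 untreated. It had 553, 8730 and 705 in 9425, against 20, 18 and 19, and 10360 and 2593 in J01-S, against 45 and 28. The treated libraries of each susceptible line spread widely, and none overlapped the untreated ones. Its log2 fold change was 4.28 ± 0.82, 6.24 ± 0.82 and 7.15 ± 1.00 for Flur-R, 9425 and J01-S (adjusted p = 0.0021, 0.000145 and 0.000278). At 10 HAT it had 113 to 627 in Flur-R and 310, 388 and 554 in 9425. The J01-S values were 228 and 143, where it was not called (adjusted p = 0.142).

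Bs.00g496840.m01 (chromosome 6, 27704838 to 27705301, plus strand, CDS 300 nt, with a UTR) had 197, 176 and 208 at 3 HAT in Flur-R, against 15, 3 and 57 untreated. The 9425 values were 64, 532 and 93, against 6, 7 and 13, and those of J01-S 581 and 205, against 28 and 18. It rose in each line, with log2 fold changes of 3.65 ± 0.81, 4.01 ± 0.81 and 3.88 ± 0.99 (adjusted p = 0.00637, 0.00454 and 0.0191). The J01-S call was lost without J01-S 3 HAT replicate 1 or either untreated library.

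Bs.00g127980.m01 (chromosome 1, 2034158 to 2034622, minus strand, CDS 465 nt) fell early and further with time. In Flur-R it had 737, 850 and 766 untreated, 132, 160 and 209 at 3 HAT and 71, 96, 100 and 103 at 10 HAT. The values in 9425 were 1875, 1053 and 1069, then 671, 465 and 287, then 149, 209 and 119, and in J01-S 820 and 613, then 209 and 195, then 88 and 136. Within each line the 3 groups did not overlap. The log2 fold changes at 3 HAT were -2.25 ± 0.31, -1.52 ± 0.31 and -1.81 ± 0.38 (adjusted p = 0.000112, 0.00464 and 0.00512), and at 10 HAT -3.08 ± 0.29, -3.04 ± 0.31 and -2.68 ± 0.38. The J01-S call at 3 HAT was lost without J01-S untreated replicate 1.

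Bs.00g009830.m01 (chromosome 8, 10985479 to 10985826, plus strand, CDS 348 nt) had 19, 21 and 26 at 3 HAT in Flur-R, against 90, 78 and 134 untreated. In 9425 it had 27, 17 and 19, against 93, 60 and 48, and in J01-S 32 and 7, against 86 and 130. It fell in each line, with log2 fold changes of -2.12 ± 0.47, -1.60 ± 0.47 and -2.72 ± 0.58 (adjusted p = 0.00644, 0.0422 and 0.00581). The 9425 call was lost with the 2 left-out libraries included, with no filter and without 3 HAT replicate 3 or 4 or any untreated replicate. The J01-S call was lost without 3 HAT replicate 4 or untreated replicate 4.

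At 10 HAT, 28 members rose and 55 fell under the same rule of no overlap and level (1.65 and 3.24%, against 2.90 and 5.25% of all). Bs.00g326050.m01 (chromosome 9, 43840175 to 43840429, plus strand, CDS 255 nt) climbed at both times. In Flur-R it had 109, 27 and 20 untreated, 511, 265 and 330 at 3 HAT and 1248, 1793, 700 and 1130 at 10 HAT. Its 9425 values were 4, 52 and 19, then 310, 219 and 263, then 441, 445 and 461, and in J01-S 16 and 15, then 181 and 317, then 612 and 1158. The log2 fold changes at 10 HAT were 4.85 ± 0.61, 4.69 ± 0.65 and 5.68 ± 0.80 (adjusted p = 1.25e-05, 4.18e-05 and 0.000103), and at 3 HAT 3.15 ± 0.65, 3.91 ± 0.65 and 3.87 ± 0.80.

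Bs.00g130680.m01 (chromosome 1, 4358612 to 4359166, plus strand, CDS 555 nt) had 269, 937, 52 and 1411 at 10 HAT in Flur-R, against 30, 0 and 30 untreated. In 9425 it had 373, 371 and 230, against 16, 7 and 26, and in J01-S 442 and 1486, against 34 and 2. The Flur-R libraries at 10 HAT lay far apart, and the lowest was still above the untreated ones. Its log2 fold changes were 5.23 ± 1.39, 4.37 ± 1.49 and 6.31 ± 1.82 (adjusted p = 0.0108, 0.0428 and 0.0266). The call was lost in Flur-R without untreated replicate 3 and in J01-S without 10 HAT replicate 2 or 4 or untreated replicate 4. In 9425 it was lost without any 1 of its 6 libraries, with 0.5 added and with no filter.

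Bs.00g102180.m01 (chromosome 4, 78702682 to 78703107, minus strand, CDS 426 nt) had 20, 54, 88 and 28 at 10 HAT in Flur-R, against 848, 1234 and 367 untreated. The 9425 libraries had 69, 107 and 54, against 2117, 1286 and 1689, and in J01-S 36 and 5, against 154 and 465. At 3 HAT its values lay between (243, 340 and 132 in Flur-R) and no line passed the test. Its log2 fold changes at 10 HAT were -4.13 ± 0.61, -4.48 ± 0.65 and -4.17 ± 0.80 (adjusted p = 7.03e-05, 6.72e-05 and 0.00163). Bs.00g436590.m01 (chromosome 2, 14395327 to 14395806, minus strand, CDS 480 nt) had 11, 24, 3 and 14 at 10 HAT in Flur-R, against 395, 82 and 109 untreated. In 9425 it was almost gone, with 1, 0 and 2, against 105, 43 and 89, and in J01-S it had 17 and 18, against 261 and 252. The log2 fold changes were -3.73 ± 0.60, -5.36 ± 0.64 and -3.80 ± 0.79 (adjusted p = 0.000164, 9.13e-06 and 0.00291).

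**Figure D3:**
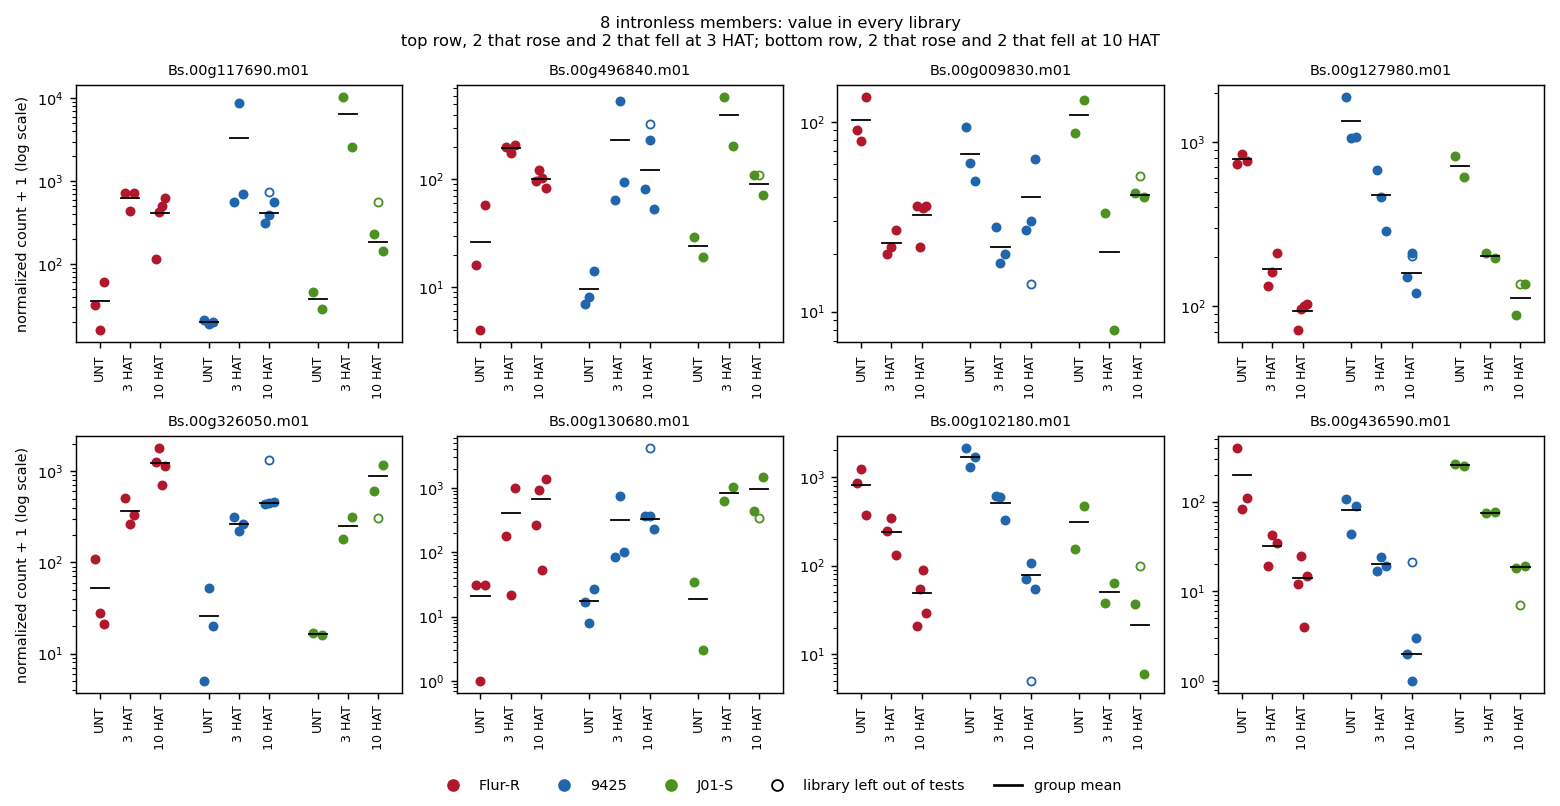
Each panel shows 1 member, with its normalized count plus 1 in every library on a log scale, by line and time (points, libraries; bars, group means; open points, the 2 libraries left out). The top row holds the 2 members that rose and the 2 that fell at 3 HAT and the bottom row those at 10 HAT, and Bs.00g326050.m01 stands between 441 and 1793 at 10 HAT in the libraries used, against 4 to 109 untreated.

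The members lay next to each other along the chromosomes more often than other genes lay next to a member. They made up 6.30% of the tested loci and 5.17 to 6.57% of the tested transcripts of a chromosome. Of 1697 tested member loci, 342 had another member as the next tested locus on either side (20.2%, Wilson 95% interval 18.3 to 22.1, which covers counting only), where 2705 of the 23621 loci with 2 or more CDS lines did. The shares were 15.1 and 6.11% when all loci of the gene models were counted, 19.3 and 7.87% among loci with a mean of at least 50, and 15.0 and 7.73% for another member within 10 kb. The 342 formed 124 runs of 2 members, 20 of 3, 7 of 4 and 1 of 6.

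Adjacent members were often alike in strand and length. Of 190 adjacent pairs, 136 lay on the same strand (71.6%), against 52.8% of 20901 adjacent pairs of loci with 2 or more CDS lines, and the median gap was 5445 nt, against 9596 nt. In 25 pairs (13.2%) the CDS lengths were equal and in 90 (47.4%) they were within 30 nt, where 0.92 and 18.6% of all pairs of members were. In 11 pairs the members were on the same strand at most 100 nt apart, and whether such models are parts of 1 transcript was not tested.

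Reads of near-identical copies cannot be told apart by their values, and the authors' mapping to coding sequences may split or share them. Among the 1054 members with a mean of at least 20, 17 pairs of equal CDS length differed by under 0.5 on the log2 scale in each of the 25 libraries, and 13 of these pairs lay on 1 chromosome. Bs.00g073290.m01 and Bs.00g073320.m01 (chromosome 4, 16648112 to 16648474 and 16710306 to 16710668, both CDS 363 nt) had 3480, 2993 and 2318, and 3536, 3013 and 2355, in untreated Flur-R. Both were 0 in untreated J01-S, and at 10 HAT they had 2393 and 2420 in J01-S replicate 2 and 1 in replicate 4. Their calls there (adjusted p = 0.0309 each) thus rest on replicate 2. That plant has no untreated library, and its library lay between the lines when the labelled lines were examined.

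Members next to another member rose more often than the other members in each comparison, and at 10 HAT in 9425 less often than all transcripts tested (9.06% against 9.84%). At 3 HAT 7.60% of the 342 rose in Flur-R, against 3.47% of the 1356 others. The shares were 6.14 and 4.65% in 9425 and 6.43 and 4.57% in J01-S. At 10 HAT 8.48% rose in Flur-R, against 5.90% of the others, 9.06 against 6.86% in 9425 and 6.73 against 3.47% in J01-S. Falls were less frequent among neighbours at 10 HAT, at 7.89 against 9.37% in Flur-R, 5.26 against 8.70% in 9425 and 3.80 against 6.12% in J01-S. At 3 HAT 2.05% of neighbours fell in Flur-R, against 3.83%, while in 9425 the order was the other way (2.05 against 1.11%) and in J01-S the shares were 1.46 and 1.62%. The order in 9425 turned round with the plant as a block, with neighbours minus others at -0.10 percentage points for falls at 3 HAT, against 0.94 without the block, and in J01-S the difference was -2.83, against -0.16. Weighted to the untreated levels of the neighbours, the share of the other members that rose at 3 HAT was 3.34, 4.68 and 4.58% in Flur-R, 9425 and J01-S, and that of transcripts with 2 or more CDS lines was 4.31, 3.35 and 3.98%. At 10 HAT 7.29, 8.25 and 5.08% of those transcripts rose at like level, and 7.08, 7.03 and 4.54% fell. Neighbours therefore fell more often than those transcripts in Flur-R and less often in 9425 and J01-S at 10 HAT. Neighbours can share reads, and these differences were not tested. With the plant as a block, neighbours exceeded the others in rises at 3 HAT by 2.2 (Flur-R), 0.14 (9425) and 1.59 (J01-S) percentage points, against 4.14, 1.49 and 1.86 without it.

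**Figure D4:**
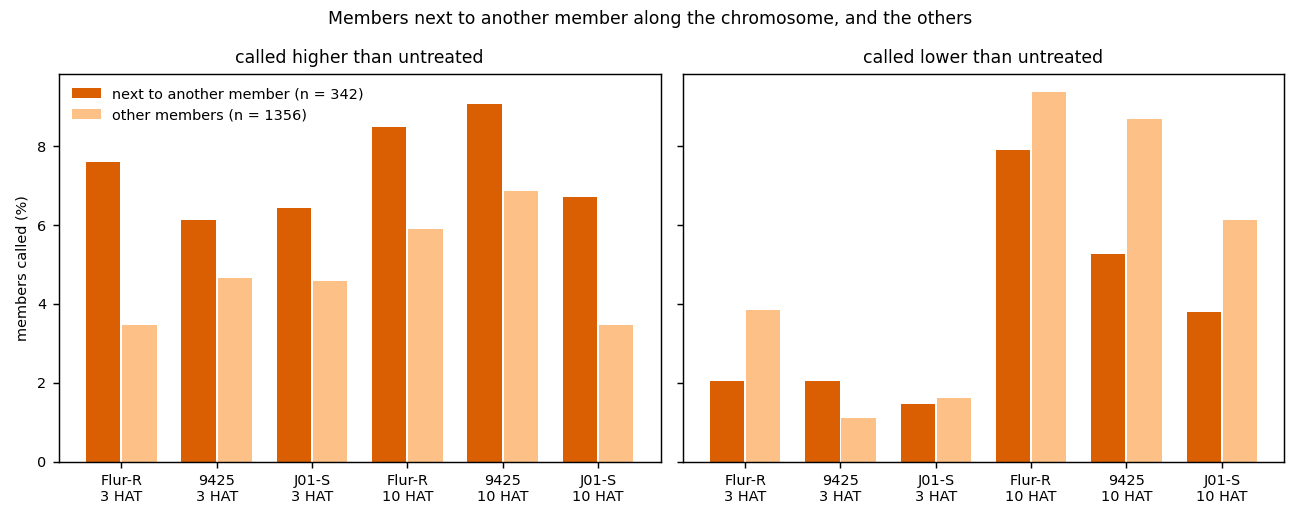
Bars give the percent of members called higher (left) or lower (right) than untreated, for the 342 members next to another member and the 1356 others, by line and time. Neighbours stand higher for rises in each comparison (7.60% against 3.47% at 3 HAT in Flur-R) and lower for falls at 10 HAT.

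Of the 190 adjacent pairs, most of those with a member that rose had only 1 such member. No counts for adjacent pairs of other transcripts stand beside these, so they are a description. Likeness of response within pairs was not tested. In Flur-R, 9425 and J01-S 5.16, 4.27 and 4.73% of all transcripts tested rose at 3 HAT, and 8.27, 9.84 and 5.67% at 10 HAT. At 3 HAT at least 1 member rose in 24 adjacent pairs in Flur-R, and in 8 of these both did. In 9425 3 of 20 such pairs had both and in J01-S 3 of 22. At 10 HAT both rose in 6 of 29 pairs in Flur-R, 5 of 32 in 9425 and 4 of 24 in J01-S. Both fell in 3 of 24, 1 of 17 and 2 of 12 pairs at 10 HAT, and in 0 of 7, 0 of 7 and 0 of 5 at 3 HAT. The members of a pair were called in opposite directions in Flur-R only, in 1 pair at 3 HAT and 2 pairs at 10 HAT.

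The longest run had 6 members on the plus strand of chromosome 9 within 9251 nt (1999258 to 2008508), with CDS lengths of 270 to 300 nt. Its members Bs.00g297810.m01, Bs.00g297820.m01, Bs.00g297830.m01 and Bs.00g297840.m01 rose in Flur-R at both times, by 2.35 to 3.00 on the log2 scale at 3 HAT and 1.99 to 2.82 at 10 HAT. The Flur-R call at 3 HAT was lost for Bs.00g297820.m01 without 3 HAT replicate 2 or untreated replicate 4 and for Bs.00g297830.m01 without 3 HAT replicate 4 or untreated replicate 4. Bs.00g297840.m01 (2008238 to 2008508, CDS 270 nt) was at 661, 222 and 132 in untreated Flur-R, 2226, 1267 and 2586 at 3 HAT and 1471, 1521, 1823 and 2043 at 10 HAT. In 9425 there were 412, 254 and 495, then 1579, 1179 and 1040, then 896, 1367 and 1128, and in J01-S 462 and 332, then 1125 and 814, then 1144 and 989. All treated libraries were above the untreated ones of their line. The log2 fold change at 3 HAT was 2.85 ± 0.42, 1.74 ± 0.42 and 1.29 ± 0.51 for Flur-R, 9425 and J01-S (adjusted p = 0.000197, 0.0139 and 0.138), and J01-S missed the threshold. The 9425 call was lost at 3 HAT without 3 HAT replicate 3 or untreated replicate 2 and at 10 HAT without untreated replicate 2.

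Bs.00g297830.m01 (2006541 to 2006816, CDS 276 nt) also rose in 9425, with 574, 626 and 406 at 3 HAT, against 113, 41 and 113 untreated (log2 fold change 2.69 ± 0.58, adjusted p = 0.00704), and its 9425 call at 10 HAT was lost without untreated replicate 2. Bs.00g297820.m01 (CDS 279 nt) had 839, 364 and 934 at 3 HAT in Flur-R, against 331, 117 and 29 untreated, and Bs.00g297810.m01 (CDS 288 nt), a low member, had 48, 78 and 130, against 10, 9 and 8. The remaining 2 moved less. Bs.00g297800.m01 (CDS 285 nt), by far the most abundant of the run, had 2088, 1527 and 6075 at 3 HAT in Flur-R, against 4937, 3350 and 3139 untreated, and was not called in any line. Bs.00g297790.m01 (CDS 300 nt) was called at 10 HAT in 9425 only (adjusted p = 0.0365), and not with the 2 left-out libraries, with no filter or without 10 HAT replicate 2 or 4 or untreated replicate 2 or 3. Whether the responses of Flur-R and the susceptible lines differed was tested for each member, and no member of the run passed.

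Of the 7 runs of 4, those with the smallest span are described. The other 5 held 20 members, of which 1 (Flur-R), 0 (9425) and 1 (J01-S) rose and 0 fell at 3 HAT. At 10 HAT 2, 2 and 4 of them rose and 3, 0 and 0 fell. The shortest, on chromosome 9, had 4 members on the minus strand (1671508 to 1681437). Bs.00g297350.m01 (CDS 351 nt) fell in Flur-R at 10 HAT, with 1091, 1390, 5821 and 9403, against 18469, 12594 and 23085 untreated (log2 fold change -2.54 ± 0.68, adjusted p = 0.0114), and the call was lost without Flur-R untreated replicate 4. Its Flur-R libraries differed among plants at 10 HAT, with plants 1 and 2 low and plants 3 and 4 higher. In 9425 it had 13013, 12257 and 11409, against 21491, 9103 and 18875. Bs.00g297360.m01 (CDS 351 nt), Bs.00g297370.m01 (CDS 330 nt) and Bs.00g297380.m02 (CDS 303 nt) were called in no line at either time.

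On chromosome 1, 4 members lay on the minus strand within 11535 nt (95604143 to 95615677), and 2 of them rose in all 3 lines at both times. Bs.00g180950.m01 (CDS 582 nt) had 43509, 49360 and 73626 at 3 HAT in Flur-R, against 30324, 22638 and 31065 untreated. The 9425 values were 51099, 55025 and 43944, against 35796, 19419 and 25429, and in J01-S 65392 and 54575, against 28939 and 17801. Its log2 fold changes were 0.96 ± 0.25, 0.94 ± 0.25 and 1.40 ± 0.31 at 3 HAT and 0.95 ± 0.24, 1.10 ± 0.25 and 1.33 ± 0.31 at 10 HAT. Its call at 3 HAT was lost in Flur-R without 3 HAT replicate 4 or untreated replicate 3, in 9425 without 3 HAT replicate 2 or 3 or untreated replicate 2 or 3 and in J01-S without 3 HAT replicate 1 or untreated replicate 4. At 10 HAT the J01-S call was lost without 10 HAT replicate 4 or untreated replicate 4. Bs.00g180930.m01 (CDS 597 nt, with a UTR) had 31469, 25047 and 23082 at 3 HAT in Flur-R, against 15668, 8340 and 6363 untreated, and rose by 1.48 ± 0.32, 1.37 ± 0.32 and 1.95 ± 0.39 at 3 HAT. With the 2 left-out libraries, of which the one labelled J01-S had 7292 and the one labelled 9425 39635, its calls were lost for Flur-R and 9425 at 3 HAT and for Flur-R and J01-S at 10 HAT. With no filter its J01-S call at 10 HAT was lost. Single libraries also decided its calls. At 3 HAT the call was lost in 9425 without untreated replicate 2 and in J01-S without 3 HAT replicate 1 or untreated replicate 4, and at 10 HAT in Flur-R without 10 HAT replicate 2 or untreated replicate 3 or 4, in 9425 without 10 HAT replicate 1 or 4 or untreated replicate 2 and in J01-S without any 1 of its 4 libraries. Between them lay Bs.00g180940.m01 (CDS 507 nt), at 8 to 55 in the 25 libraries and called in none of the comparisons with untreated tissue, and at the end Bs.00g180960.m01 (CDS 525 nt), which was not called either.

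**Figure D5:**
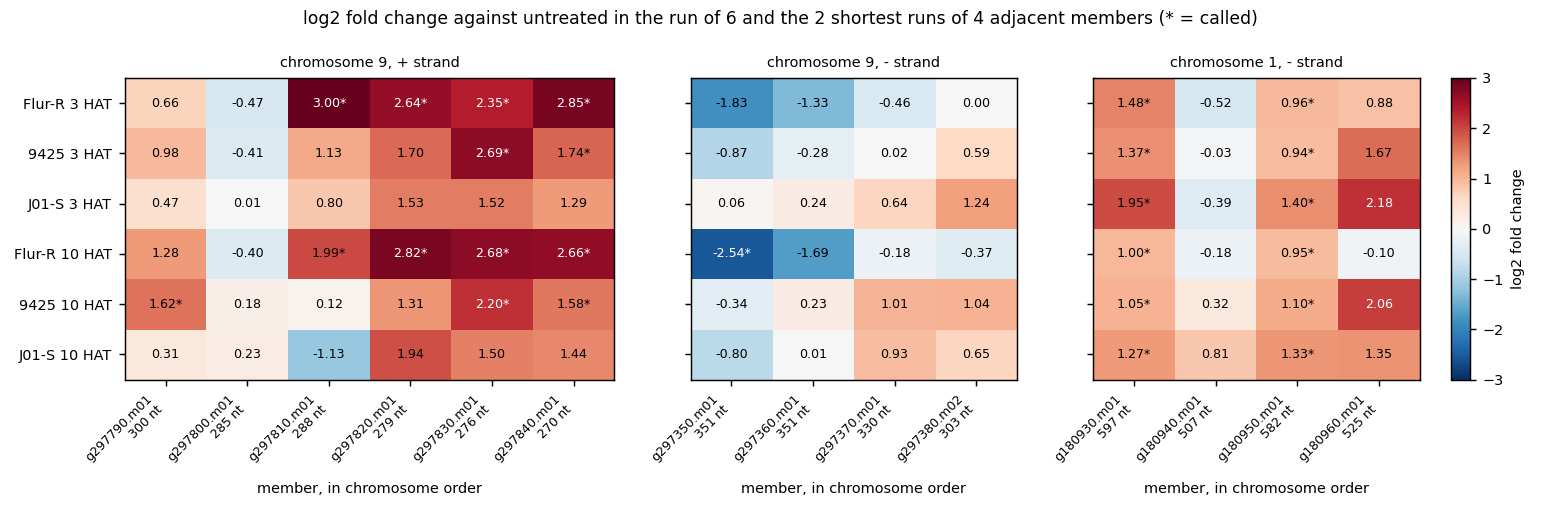
Cells give the log2 fold change against untreated of each member of the run of 6 and the 2 runs of 4 with the smallest span, in chromosome order, for 3 lines and 2 times (asterisk, called). In the run of 6 on chromosome 9 the members Bs.00g297810.m01 to Bs.00g297840.m01 have 1.99 to 3.00 in Flur-R while Bs.00g297800.m01 has -0.47 and -0.40, and on chromosome 1 Bs.00g180930.m01 and Bs.00g180950.m01 are called in each comparison.

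Before treatment, 91 members were higher in Flur-R than in 9425 (5.36%, against 3.99% of all transcripts tested) and 22 lower (1.30%, against 1.31%). Against J01-S, 38 were higher (2.24%, against 1.61%) and 31 lower (1.83%, against 1.46%). The Flur-R libraries are shared between the comparisons. Against both lines without overlap and with a mean of 50 or more, 8 members were higher (0.471%, against 0.549% of all) and 1 was lower (0.0589%, against 0.0864%), and the leading ones follow. Bs.00g228010.m01 and Bs.00g228020.m01 (chromosome 3, 88612641 to 88613228 and 88613277 to 88613789, minus strand, CDS 588 and 513 nt, 48 nt apart) had 241, 107 and 144 and 187, 69 and 123 in untreated Flur-R and were listed at 0 in every library of 9425 and J01-S. They were not called after treatment in Flur-R. Bs.00g053700.m01 (chromosome 8, 92942317 to 92942577, minus strand, CDS 261 nt) was listed at 0 in every Flur-R library, with 41, 89 and 204 in untreated 9425 and 73 and 101 in untreated J01-S. Since these 3 passed the minimum only through the lines in which they were high, their difference is a description. The lines are different populations, and whether these sequences are missing from a genome or not transcribed was not tested. Without Flur-R untreated replicate 2, 39 members were higher and 10 lower than in 9425, and without 9425 untreated replicate 2 57 and 14; 13 and 10 were lower without 9425 untreated replicates 1 and 3. With the 2 left-out libraries included, 56 members were above and 10 below 9425.

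The response itself seldom differed between Flur-R and a susceptible line by the test of the difference. At 3 HAT limma called 0 members against 9425 (0.0104% of all transcripts tested were called) and 0 against J01-S (0.00% of all). At 10 HAT it called 3 against 9425 (0.0587% of all) and 0 against J01-S (0.00345% of all). An unadjusted p under 0.05 was reached at 3 HAT by 51 and 45 of 1698 members, beside 886 and 605 of all 28945 transcripts. The unadjusted counts at 10 HAT were 110 and 100 members, beside 1878 and 1311 of all transcripts. With the plant as a random effect the counts of members called were 3 and 0 at 3 HAT and 18 and 0 at 10 HAT. No share of all transcripts tested stands beside these counts, so they are not read as particular to the members.

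Bs.00g478420.m01 (chromosome 6, 3976094 to 3976579, plus strand, CDS 486 nt) rose in Flur-R at both times, with 30, 53 and 44 untreated, 1144, 594 and 1015 at 3 HAT and 1341, 1655, 807 and 1247 at 10 HAT. In 9425 it had 85, 195 and 106, then 710, 918 and 377, then 237, 168 and 369, and in J01-S 59 and 24, then 989 and 346, then 563 and 186. The response at 10 HAT was larger in Flur-R than in 9425 by 3.84 ± 0.70 on the log2 scale (adjusted p = 0.0482), with the untreated level in Flur-R below that of 9425 in each library. The call was lost with the plant as a block (adjusted p = 0.0596), with the 2 left-out libraries (0.122), with 0.5 added (0.0589), with a filter at 50 (0.102) and without any 1 of 12 libraries (0.0591 to 0.167). Its neighbour Bs.00g478430.m01 (3976624 to 3976932, CDS 309 nt), which begins 44 nt downstream and was picked after its values were seen, had 751, 1055, 501 and 838 at 10 HAT in Flur-R, against 42, 29 and 35 untreated, and 160, 123 and 247 in 9425, against 49, 149 and 57.

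Bs.00g024880.m01 (chromosome 8, 36900288 to 36900785, plus strand, CDS 498 nt) fell in Flur-R and J01-S at both times and was called in 9425 at neither. At 10 HAT it had 432, 404, 629 and 423 in Flur-R, against 1185, 959 and 1902 untreated, and 594 and 467 in J01-S, against 1239 and 1105. The 9425 values were 776, 787 and 927, against 849, 576 and 530, and the untreated level was higher in Flur-R than in 9425 (log2 fold change 1.02, adjusted p = 0.0116). The difference between Flur-R and 9425 was -1.85 ± 0.32 (adjusted p = 0.0284). This call was lost with the plant as a block (adjusted p = 0.0906), with only the groups compared in the fit (0.232), with equal totals (0.0589) and with a filter at 50 (0.0614). It was also lost with the 2 left-out libraries (0.62), of which the one labelled 9425 had 203, and without any 1 of 9 libraries (0.0659 to 0.106). The other member called was Bs.00g261340.m01 (chromosome 7, 25945454 to 25946023, CDS 570 nt), with 1, 0, 0 and 0 at 10 HAT in Flur-R and 32, 11 and 13 in 9425, where all untreated libraries of both lines were listed at 0. At 10 HAT the J01-S libraries had 8 and 15, and it was called higher there (adjusted p = 0.00159). Among the 25 libraries it reached 10 only at 10 HAT in 9425 and J01-S, where it was high. Its difference is therefore a description.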

How the data were processed

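RNA-seq values of 27 libraries of the lines Flur-R, 9425 and J01-S, untreated and at 3 and 10 HAT, were used with the gene models of kochia assembly version 2. The authors mapped reads to coding sequences with HISAT2 (2.1.0 in the submitters' notes), counted them per transcript with featureCounts and normalized them with DESeq (their own tests used DESeq2 1.28.1). In the deposited table these normalized counts are rounded to whole numbers, so their unit was taken as a score. Reads could not be recovered from them, no count model was run, and the depth behind a value is unknown. Near-identical copies and isoforms can share reads.

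Log2 values (1 added) of 25 libraries in 9 groups were fitted once with limma 3.58.1 (R 4.3.3, trend option), with Benjamini-Hochberg adjustment over all 28945 transcripts in each comparison. Fold changes on this scale understate those of low transcripts. The procedure was tested on simulated data. Counts, shares and runs were computed in Python 3.11.15 with CDS lines as given in the gene models. The members and lists were chosen with earlier results of these data known. Named members are those past the thresholds in all 3 lines (in both comparisons for untreated tissue) without overlap and with a mean of at least 50, up to 2 in each direction by the smallest change, the largest called response difference in each direction with such a mean, and all members of the 3 longest runs, with ties among runs of 4 settled by the smaller span.

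The alternatives were 0.5 or 8 added to the value, no filter, a filter at 50, quantile normalization, equal totals, only the groups compared, sums by locus, the plant as a block or random effect, all 27 libraries, each library left out, members with exactly 1 exon line, and other bins, length ranges and distances. Bins per kb, members without neighbours and the alternatives for calls in all 3 lines and for neighbours were added after the data were seen. Libraries of 1 plant deviated together, with median correlations of 0.725 (Flur-R), 0.508 (9425) and 0.608 (J01-S), while libraries from different plants had -0.275, -0.242 and -0.449. Deviations were taken from group means of 2 to 4 libraries. This by itself pushes the correlations of different plants to negative values, so their sign is set by the procedure. Replicates are separate plants by the labels, RNA batches are not identified, and no sequence was used here.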

Additional observations from a re-analysis of the deposited data

Results flagged for a closer look

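Among the named members, 26 were looked at in Flur-R at 10 HAT, the only group with 4 libraries, and in 2 a library stood far from the other 3, where chance alone gives about 1 in 20. A count of 2 among 26 is near that share, so these 2 are a description. Bs.00g009830.m01 had 21 in replicate 2, against 34 to 35 in the other 3 libraries. Bs.00g024880.m01 had 629 in replicate 3, against 404 to 432 in the others. The response at 10 HAT of 3 members differed between Flur-R and 9425 by the test of the difference: Bs.00g478420.m01 by 3.84 on the log2 scale, Bs.00g024880.m01 by -1.85 and Bs.00g261340.m01 by -3.90. The size of the last depends on the constant added to the value, since all but 1 of the Flur-R libraries were listed at 0. Bs.00g261340.m01 also passed the minimum only through groups in which it was high, so its difference is a description.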

How the results depend on the processing

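With the plant as a replicate block, 144 members rose and 141 fell for Flur-R at 3 HAT, 162 and 56 for 9425, 187 and 83 for J01-S and 71 and 18 in all 3 lines, and at 10 HAT 167 rose in Flur-R and 216 in 9425. Between untreated lines the block pairs different plants by number and left 0 members higher and 0 lower in each comparison. With the plant as a random effect of the replicate block, 162 rose and 156 fell for Flur-R at 3 HAT, 174 and 83 for 9425, 207 and 101 for J01-S and 91 and 27 in all 3 lines, and at 10 HAT 175 and 243, 214 and 207, 139 and 145 and 70 and 92. It gave 34 members lower in untreated Flur-R than in 9425, and 3 and 18 response differences from 9425 at 3 and 10 HAT.

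With only the groups compared in the fit, 20 members rose and 15 fell for Flur-R at 3 HAT, 4 and 1 for 9425, 0 and 0 for J01-S, and 0 and 0 in all 3 lines. At 10 HAT 85 fell in 9425, 0 rose and 0 fell in J01-S and 0 and 0 in all 3 lines, and in untreated tissue 60 were higher and 11 lower than in 9425 and 17 and 15 than in J01-S. Such fits hold fewer libraries. With equal totals 239, 187 and 136 rose at 10 HAT, 81 in all 3 lines, and 7 fell in all 3 at 3 HAT. With a filter at 50, 60 and 11 were higher and lower than in 9425 and 14 and 19 than in J01-S. With the 2 left-out libraries 56 and 10 were higher and lower than in 9425. Response differences from 9425 at 10 HAT numbered 0 with the filter at 50, 1 with 0.5 added, 9 with no filter and 1 with the 2 libraries. In members over 420 nt the share called minus that of transcripts with 2 or more CDS lines was 2.59 points for falls and 3.80 at 3 and 10 HAT in Flur-R and 2.92 for rises at 3 HAT in 9425. Matched per kb, that difference for falls was -0.34, -1.84 and -1.72 at 3 HAT and -0.92, -1.65 and -1.20 at 10 HAT. Members next to another were 15.1% over all loci, 15.0% within 10 kb and 31.3% within 50 kb. The causes of these shifts were not tested. The counts of members under these settings have no shares of all transcripts tested beside them here, so they are no contrast with other transcripts.

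With single libraries left out, rises and falls at 3 HAT ranged over 44 to 73 and 28 to 83 in Flur-R, 25 to 77 and 8 to 27 in 9425, 23 to 69 and 11 to 15 in J01-S and 12 to 33 and 3 to 11 in all 3 lines. At 10 HAT they ranged over 70 to 109 and 109 to 148, 85 to 119 and 88 to 125, 40 to 57 and 43 to 93, and 15 to 35 and 35 to 62. Untreated, 39 to 85 were higher and 10 to 22 lower than in 9425, and 26 to 33 and 24 to 35 than in J01-S. Response differences ranged over 0 to 1 and 0 to 3 from 9425 at 3 and 10 HAT and 0 to 0 and 0 to 13 from J01-S, the 13 without J01-S 10 HAT replicate 4. Of 984 alternatives for 58 calls of named members, 847 kept the call, 137 lost it (78 of these without 1 library) and 0 turned the direction. With only the groups compared in the fit, 34 of the 58 calls were lost and 24 were kept.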
